A study of Mus musculus with 15 samples.

Results

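Collagens are secreted proteins built as triple helices of chains, and each chain has its own gene. Fibrillar collagens assemble into the tension-bearing fibrils of the submucosa and muscle layers, while type IV collagen forms the sheet-like network of basement membranes under epithelium and around vessels and smooth muscle. The remaining collagens coat fibrils, form beaded filaments or other networks, or span the cell membrane. In the colon wall most collagen is made by fibroblasts, with basement membrane collagens also coming from endothelium, smooth muscle and epithelium.

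Collagen genes were taken as every row whose mouse symbol has the form Col, a number, a and a number, a rule that used no measured value. It gave 44 of the 22063 genes in the table, and by known structure 11 of them are fibrillar, 8 belong to the basement membrane and 25 are other collagens. The RNA came from colon of WT C57BL/6 mice in 15 libraries: 5 labelled WMW-H, 5 labelled AOM/DSS and 5 labelled Control. AOM/DSS is azoxymethane, a carcinogen, with dextran sulfate sodium, an irritant of the colon lining, used to model colitis-associated colorectal cancer. WMW-H is the treatment group of the study, which by its title concerns Wumei Wan, a traditional herbal formula. No source used here gives the dose, the meaning of the letter H, the ages or the schedule, and the labels of the WMW-H libraries name no AOM/DSS, although the design places them in a study of treatment of the model. Nothing says that the 5 libraries of a group came from separate animals, so the p-values measure only the spread between these libraries.

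Values are FPKM, fragments scaled to transcript length and library depth, which allow levels of different genes to be compared. From the steps between low values, the libraries held between 16300000 and 21200000 fragments. WMW-H replicate 3 stood apart from the other libraries, at -16.7 on the principal component ranked 3 against -1.6 to 5.7 for the other 14, so counts and shares that it moves are also given without it. Although the labels name colon epithelial cells, smooth muscle markers summed to 2010 to 2130 FPKM in the 15 libraries and epithelial markers to 4220 to 5040 FPKM, so RNA of the muscle layers was present beside that of the epithelium. Transcripts typical of other organs were also present, and their source was not tested. Markers of pancreatic acinar cells averaged 7910 FPKM in WMW-H (range 7590 to 8080), 4330 FPKM in AOM/DSS (4270 to 4380) and 19400 FPKM in Control libraries (19100 to 19600). Markers of male accessory glands averaged 2.29 FPKM in WMW-H (0 to 4.14), 2540 FPKM in AOM/DSS (2490 to 2630) and 1.85 FPKM in Control libraries (0 to 3.33). Where these sums were high, the 5 libraries of a group thus lay close together. Whether they came from separate tissue samples was not tested. In bulk RNA, fewer cells of a type and less RNA per cell cannot be told apart.

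Of the 44 collagen genes, 26 reached 1 FPKM in at least 5 libraries and were tested. The other 18 averaged 0.00533 to 0.789 FPKM and are described after the tested ones. Of the 26, 20 were at 1 FPKM or more in all 15 libraries, and the other 6 (Col4a6, Col9a2, Col9a3, Col13a1, Col27a1 and Col28a1) were under 1 FPKM in some libraries, so the groups where they are high carried them past the filter. Each gene was compared by limma, fitted across all 12917 genes that passed the same filter, after taking log2(FPKM + 1). On that scale the change of a gene near 1 FPKM is understated. Folds given in the text are ratios of group means in FPKM, and the limma log2 changes beside them are on the log2(FPKM + 1) scale. A gene was called at an adjusted p under 0.05. These libraries differed widely: 45.5% of all genes tested were higher and 20.6% lower in AOM/DSS than in Control libraries, so a call alone does not set a collagen apart.

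Against that background, AOM/DSS colon held more collagen RNA than Control colon, led by fibrillar and basement membrane chains. Of the 26 tested collagens 19 rose, 2 fell and 5 were not called, with a median log2 change of 0.66 against 0.12 over all genes tested. In 19 of the 26 the AOM/DSS and Control libraries did not overlap, as in 52.9% of all genes. By class, 6 of 7 fibrillar collagens rose with a median of 0.97, 4 of 6 basement membrane collagens rose with a median of 0.82, and 9 of 13 other collagens rose while 2 fell, with a median of 0.37. The other class includes Col9a2 and Col9a3, which rose, and Col28a1, which fell. In that order they reached 1 FPKM in 5, 5 and 0 AOM/DSS and in 2, 0 and 4 Control libraries, so the filter favoured these directions.

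In WMW-H colon, more collagens fell than rose relative to AOM/DSS colon, by smaller amounts. Of the 26, 16 fell, 5 rose and 5 were not called, with a median log2 change of -0.21 against -0.07 over all genes, of which 40.9% were lower and 25.9% higher. Here 16 of 26 did not overlap, against 51.2% of all genes. The fibrillar class had 5 lower and 1 higher of 7, the basement membrane class 4 lower of 6, and the other collagens 7 lower and 4 higher of 13, with medians of -0.19, -0.28 and -0.17. Without WMW-H replicate 3, 15 collagens were lower and 5 higher than in AOM/DSS colon. The other class includes Col9a2, which fell, and Col13a1 and Col28a1, which rose. In that order they reached 1 FPKM in 2, 5 and 3 WMW-H and in 5, 2 and 0 AOM/DSS libraries, so the filter favoured these directions.

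Set against Control colon, WMW-H colon still held more RNA of most collagens. In that comparison 18 of 26 were higher, 2 were lower and 6 were not called, with a median log2 change of 0.31 against 0.05 over all genes, of which 35.4% were higher and 24.1% lower. Of the 26, 17 did not overlap, against 42.3% of all genes. Without WMW-H replicate 3, 17 were higher and 2 lower. All 7 tested fibrillar collagens were called higher, while 4 of 6 basement membrane collagens and 7 of 13 other collagens were. These counts include Col27a1, a fibrillar chain, and Col9a3, of the other class. Each reached 1 FPKM in 0 Control libraries, so the filter favoured the direction of these calls. The lower calls include Col4a6, which reached 1 FPKM in 0 WMW-H, 2 AOM/DSS and 4 Control libraries, so the filter favoured that direction too. The 3 comparisons share libraries, so they are set side by side and not used as support for each other.

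**Figure D1:**
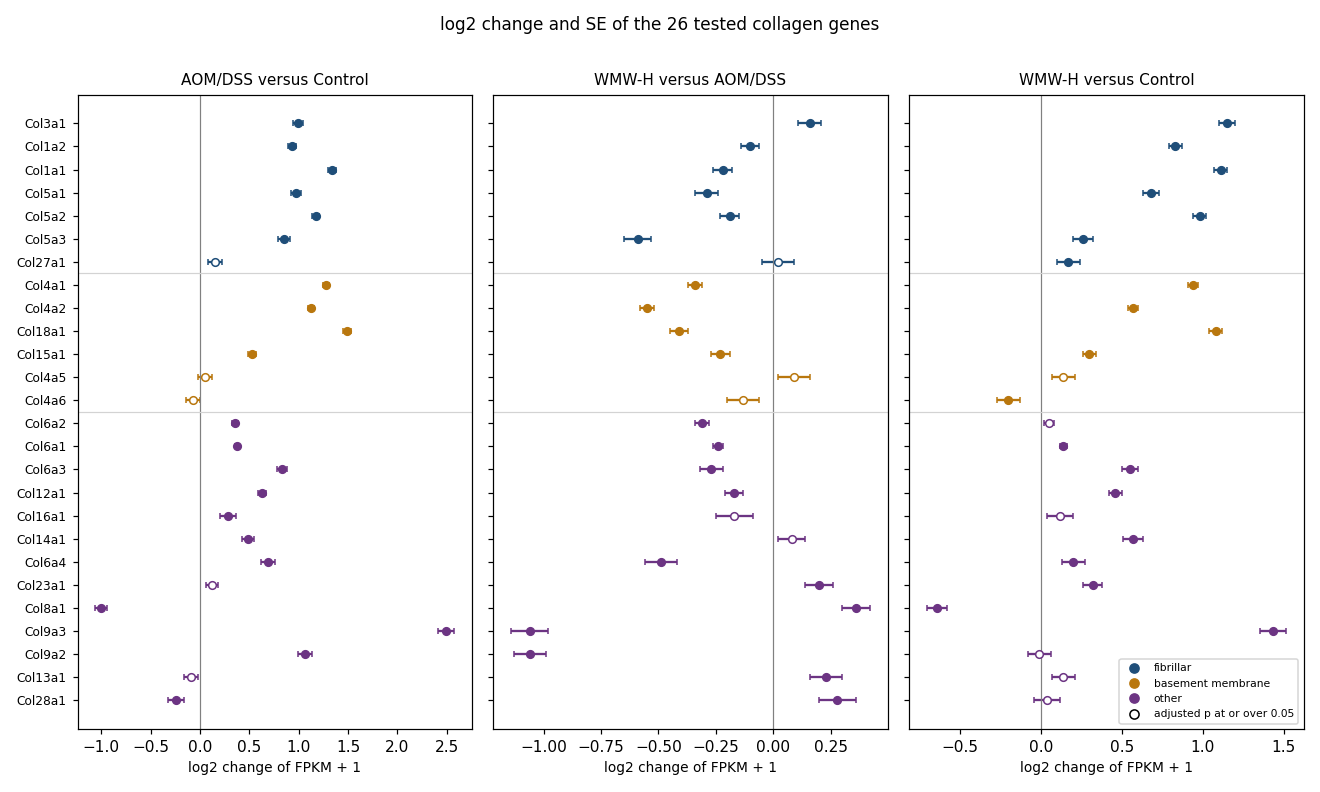
Log2 change of FPKM + 1 with its standard error for each of the 26 tested collagen genes, by class (colour), in AOM/DSS versus Control, WMW-H versus AOM/DSS and WMW-H versus Control; open circles have an adjusted p of 0.05 or more and the horizontal scales differ. Most fibrillar and basement membrane genes lie right of 0 against Control, and Col8a1 is the one called lower in both comparisons with Control.

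The summed level of all 44 genes was 595 ± 18.3 FPKM in WMW-H, 674 ± 9.43 FPKM in AOM/DSS and 357 ± 6.11 FPKM in Control libraries (SD, n = 5 each). Fibrillar collagens summed to 300.0 ± 18.0 FPKM in WMW-H, 302 ± 7.84 FPKM in AOM/DSS and 145 ± 3.43 FPKM in Control libraries, so the WMW-H and AOM/DSS ranges, 269 to 313 and 292 to 314, overlapped. The basement membrane sum was 147 ± 1.73 FPKM in WMW-H, 194 ± 3.29 FPKM in AOM/DSS and 83.5 ± 2.2 FPKM in Control libraries, with no overlap between any groups. Other collagens summed to 148 ± 2.37 FPKM in WMW-H, 178 ± 2.23 FPKM in AOM/DSS and 129 ± 1.55 FPKM in Control libraries, again without overlap.

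The make-up of the collagen RNA differed as well as its amount. Fibrillar transcripts made up 50.3 ± 1.53% of summed collagen FPKM in WMW-H, 44.8 ± 0.542% in AOM/DSS and 40.6 ± 0.431% in Control libraries. Basement membrane transcripts made up 24.7 ± 1.01% in WMW-H, 28.8 ± 0.312% in AOM/DSS and 23.4 ± 0.457% in Control libraries. Other collagens held 24.9 ± 0.611% in WMW-H, 26.4 ± 0.592% in AOM/DSS and 36.0 ± 0.223% in Control libraries. The fibrillar shares of the 3 groups did not overlap. Without WMW-H replicate 3 the WMW-H shares were 51.0%, 24.3% and 24.7%.

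**Figure D2:**
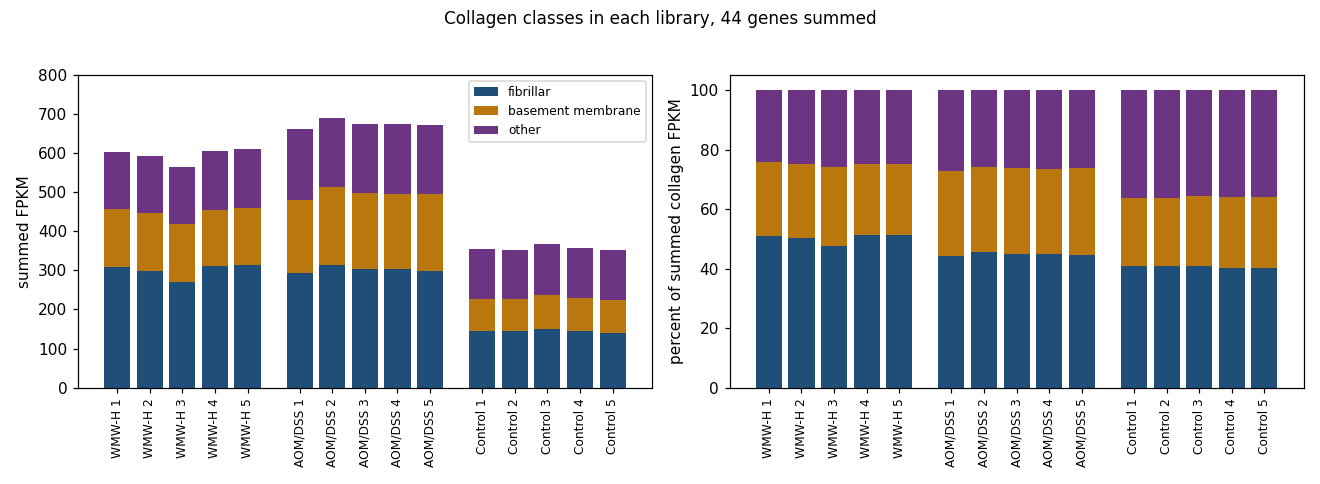
Stacked bars of summed FPKM (left) and percent of summed collagen FPKM (right) for fibrillar, basement membrane and other collagens in each of the 15 libraries, over all 44 genes. The fibrillar share is 47.7 to 51.3% in WMW-H, 44.1 to 45.5% in AOM/DSS and 40.2 to 41.0% in Control libraries.

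Among fibrillar collagens, the chains of types I, III and V rose 1.93- to 2.6-fold in AOM/DSS over Control colon, and of the 7 tested fibrillar genes only Col3a1 was called higher in WMW-H than in AOM/DSS colon. Col3a1 encodes the single chain of type III collagen, a homotrimer of extensible tissues, and was the most abundant collagen in these libraries. It stood at 167, 157, 139, 167 and 167 FPKM in the WMW-H libraries, 135, 151, 143, 139.6 and 143 FPKM in the AOM/DSS libraries and 73.3, 70.7, 74.3, 70.3 and 67.7 FPKM in the Control libraries. WMW-H replicate 3 lay among the AOM/DSS libraries and the other 4 WMW-H libraries lay above them all, while the Control libraries were far below. Mean Col3a1 was 2.0-fold higher in AOM/DSS than in Control (limma log2 change 0.99 ± 0.05 SE, adjusted p = 4.87e-12) and 1.12-fold higher in WMW-H than in AOM/DSS (limma log2 change 0.16 ± 0.05 SE, adjusted p = 0.00526). Without WMW-H replicate 3 the WMW-H change against AOM/DSS was 0.21 (limma adjusted p = 4.27e-05), and with values rescaled to TPM it was 0.11 and lost its call (limma adjusted p = 0.0556).

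Type I collagen, the main fibril protein of connective tissue, is made of 2 chains from Col1a1 and 1 from Col1a2. Col1a1 stood at 44.4, 42.9, 38.8, 43.6 and 44.4 FPKM in WMW-H, 49.3, 51, 52, 50.3 and 48 FPKM in AOM/DSS and 18.7, 19.1, 19.9, 19.5 and 19.1 FPKM in Control libraries. The 3 groups did not overlap, with AOM/DSS highest and WMW-H replicate 3 the lowest of its group. Its mean was 2.6-fold higher in AOM/DSS than in Control (limma log2 change 1.34 ± 0.04 SE, adjusted p = 2.69e-15) and lower in WMW-H than in AOM/DSS (limma log2 change -0.22 ± 0.04 SE, adjusted p = 4.25e-05).

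Col1a2 read 63.3, 65.4, 56.8, 63.4 and 67.1 FPKM in WMW-H, 65.8, 68.9, 67.5, 69.4 and 67.2 FPKM in AOM/DSS and 33.9, 34.8, 36.7, 34.2 and 35.5 FPKM in Control libraries. Its WMW-H and AOM/DSS libraries overlapped, and both groups lay above every Control library. The limma comparison gave a rise in AOM/DSS over Control (log2 change 0.93 ± 0.04 SE, adjusted p = 6.8e-13) and a small fall in WMW-H against AOM/DSS (log2 change -0.10 ± 0.04 SE, adjusted p = 0.0255). That fall was not called with size factors (limma adjusted p = 0.411), with quantile normalization (0.221) or without WMW-H replicate 3 (0.0571), AOM/DSS replicate 2 (0.0533) or AOM/DSS replicate 4 (0.058).

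Type V collagen is a minor partner that initiates type I fibrils and limits their width. Col5a1 stood at 16.2, 17.2, 17.4, 18.2 and 17.3 FPKM in WMW-H, 22.2, 22.7, 20.5, 22 and 19.4 FPKM in AOM/DSS and 10.4, 10.9, 10.8, 10.1 and 9.71 FPKM in Control libraries. Col5a2, its usual partner chain, stood at 12.5, 12.9, 12.3, 13.1 and 13 FPKM in WMW-H, 14.4, 14.6, 15.1, 15.2 and 14 FPKM in AOM/DSS and 6.18, 5.63, 5.67, 5.99 and 6.29 FPKM in Control libraries. In both genes AOM/DSS was highest, Control lowest and no groups overlapped. Col5a3, a less widespread type V chain, stood at 2.53, 2.52, 2.84, 2.43 and 2.62 FPKM in WMW-H, 4.3, 4.38, 3.89, 4.49 and 4.97 FPKM in AOM/DSS and 2.04, 1.91, 2.07, 2.08 and 1.86 FPKM in Control libraries. Its WMW-H libraries lay nearer to Control than to AOM/DSS, again with no overlap.

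By limma, AOM/DSS exceeded Control in Col5a1 (log2 change 0.97 ± 0.05 SE, adjusted p = 6.77e-12), Col5a2 (log2 change 1.17 ± 0.04 SE, adjusted p = 4.94e-14) and Col5a3 (log2 change 0.85 ± 0.06 SE, adjusted p = 8.1e-10). WMW-H was below AOM/DSS in Col5a1 (log2 change -0.29 ± 0.05 SE, adjusted p = 3.54e-05), Col5a2 (log2 change -0.19 ± 0.04 SE, adjusted p = 0.000469) and Col5a3 (log2 change -0.59 ± 0.06 SE, adjusted p = 1.15e-07). Against Control, WMW-H had log2 changes of 0.68 in Col5a1, 0.98 in Col5a2 and 0.26 in Col5a3, all called. Col27a1, a cartilage-type fibrillar chain, was the last tested one and averaged 1.08 ± 0.141 FPKM in WMW-H, 1.05 ± 0.121 FPKM in AOM/DSS and 0.846 ± 0.0905 FPKM in Control libraries (SD, n = 5 each), with a call only in WMW-H versus Control (log2 change 0.17 ± 0.07 SE, limma adjusted p = 0.0362). It reached 1 FPKM in 3 WMW-H, 3 AOM/DSS and 0 Control libraries, so the filter favoured that direction.

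Since fibrillar chains are assembled in fixed proportions or mixed into one fibril, their transcript ratios within a library were also read. The ratio of Col3a1 to Col1a1 was 3.73 ± 0.0984 in WMW-H, 2.84 ± 0.118 in AOM/DSS and 3.70 ± 0.141 in Control libraries (SD, n = 5 each). WMW-H and Control ranges overlapped, at 3.60 to 3.84 and 3.55 to 3.91, and all AOM/DSS libraries lay below them, at 2.74 to 2.99. This pattern depends on Col1a1 as the base. Over Control means, AOM/DSS was 2.0-fold in Col3a1, 2.6-fold in Col1a1 and 1.93-fold in Col1a2. WMW-H was 2.24-, 2.22- and 1.8-fold in the same genes. The fold of Col3a1 thus lay near that of Col1a2 in AOM/DSS and near that of Col1a1 in WMW-H. For Col1a1 to Col1a2 the ratio was 0.678 ± 0.019 in WMW-H, 0.74 ± 0.0217 in AOM/DSS and 0.55 ± 0.0128 in Control libraries, without overlap. Col5a1 to Col1a1 came to 0.404 ± 0.0317 in WMW-H, 0.426 ± 0.0258 in AOM/DSS and 0.539 ± 0.0251 in Control libraries, so Col5a1 RNA was lower relative to Col1a1 in both groups than in Control. This did not hold alike for all type V chains. Over Control means, Col5a2 was 2.46-fold in AOM/DSS and 2.14-fold in WMW-H, near the 2.6- and 2.22-fold of Col1a1. Col5a3 was 2.21- and 1.3-fold.

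**Figure D3:**
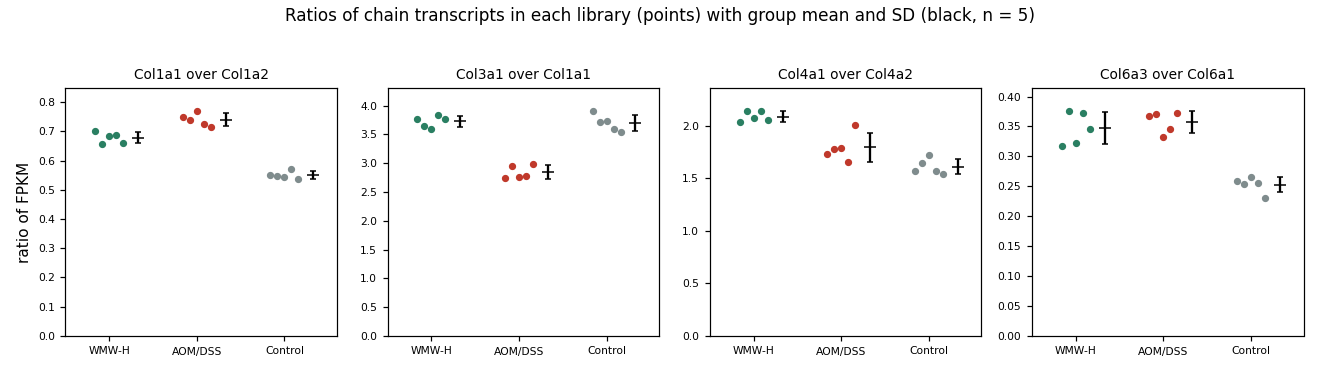
Ratio of FPKM between pairs of collagen chains in each library (points), with the mean and SD of each group (black, n = 5), for WMW-H, AOM/DSS and Control. Col3a1 over Col1a1 is 2.74 to 2.99 in AOM/DSS libraries and at least 3.55 in all others; Col4a1 over Col4a2 is 2.03 to 2.14 in WMW-H libraries.

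The promoters of 4 members are shown. Col3a1 was called higher in WMW-H than in AOM/DSS colon, though its libraries overlapped and the call was lost with values rescaled to TPM. Col5a1 and Col5a3 were called lower there, and Col8a1 went the other way from most collagens. Each promoter is the 250 bases before the RefSeq transcription start in GRCm38.p6, written 5′ to 3′ on the gene's strand and free of annotated exons. Capitals mark 3 promoter motifs searched on both strands. The letters TATAAA were searched for the box that positions many transcription starts, then CCAAT for the box bound by nuclear factor Y, and then GGGCGG for the GC box bound by Sp factors, which reads as its reverse complement where it lies on the other strand. In these 4 windows no motif overlapped another.
Col3a1, chr1:45311288-45311537, plus strand: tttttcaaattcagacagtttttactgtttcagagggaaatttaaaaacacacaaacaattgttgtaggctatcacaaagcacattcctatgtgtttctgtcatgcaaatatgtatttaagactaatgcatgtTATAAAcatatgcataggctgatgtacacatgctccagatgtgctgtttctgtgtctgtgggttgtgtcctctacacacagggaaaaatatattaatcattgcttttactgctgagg
Col5a1, chr2:27886175-27886424, plus strand: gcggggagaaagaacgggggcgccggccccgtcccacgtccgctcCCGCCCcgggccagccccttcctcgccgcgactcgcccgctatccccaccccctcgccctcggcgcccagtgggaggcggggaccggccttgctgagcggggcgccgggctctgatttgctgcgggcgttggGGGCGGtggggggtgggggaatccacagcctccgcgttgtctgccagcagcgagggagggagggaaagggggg
Col5a3, chr9:20815068-20815317, minus strand: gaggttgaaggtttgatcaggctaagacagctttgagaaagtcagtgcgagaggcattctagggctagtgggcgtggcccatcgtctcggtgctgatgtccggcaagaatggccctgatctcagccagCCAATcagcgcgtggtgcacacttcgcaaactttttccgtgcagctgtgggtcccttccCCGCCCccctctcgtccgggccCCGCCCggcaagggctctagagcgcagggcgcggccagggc
Col8a1, chr16:57754738-57754987, minus strand: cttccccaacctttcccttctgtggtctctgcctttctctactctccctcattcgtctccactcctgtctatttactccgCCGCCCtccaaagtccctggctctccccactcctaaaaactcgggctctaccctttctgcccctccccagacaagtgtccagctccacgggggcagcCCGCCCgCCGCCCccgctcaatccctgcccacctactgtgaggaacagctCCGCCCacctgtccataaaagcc

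The Col3a1 window held 1 TATAAA and no GC box. The windows of Col5a1, Col5a3 and Col8a1 held 2, 2 and 4 GC boxes, and that of Col5a3 also 1 CCAAT. Other exon-free windows of members called in WMW-H versus AOM/DSS were mixed. Those of Col15a1 and Col6a3, which fell, and of Col13a1 and Col28a1, which rose, held no GC box. Col23a1, which rose, held 1, as did the exon-free window of Col6a2, which fell. RefSeq gave 38 windows for 35 of the 44 collagen genes, and 20 of the 38 were free of annotated exons. Of all 38, with or without exons, 5 held TATAAA (13.2%, against 12.4% of all 32851 promoter windows), 13 held CCAAT (34.2% against 33.8%) and 22 held GGGCGG (57.9% against 32.7%). A match is a description of the letters and not a bound site, and a link between motifs and changes was not tested.

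Basement membrane collagens showed the same order in their 4 abundant members, with AOM/DSS highest, WMW-H between and Control lowest in every library. Col4a1 and Col4a2 encode the chains of the type IV network found in nearly all basement membranes, and are neighbours transcribed away from each other that share 22 exonic bases in GENCODE M21. Col4a1 stood at 69.6, 71.4, 72.2, 70.8 and 69.8 FPKM in WMW-H, 86.7, 90.5, 91.4, 84.8 and 96.3 FPKM in AOM/DSS and 34.9, 36.1, 38.7, 36.3 and 35.6 FPKM in Control libraries. Col4a2 stood at 34.3, 33.4, 35, 33.1 and 34.1 FPKM in WMW-H, 49.99, 50.8, 51.1, 51.2 and 48 FPKM in AOM/DSS and 22.3, 22, 22.5, 23.1 and 23.1 FPKM in Control libraries. No groups overlapped in either gene.

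AOM/DSS means exceeded Control means 2.48-fold for Col4a1 (limma log2 change 1.28 ± 0.03 SE, adjusted p = 1.77e-15) and 2.22-fold for Col4a2 (limma log2 change 1.12 ± 0.03 SE, adjusted p = 5.22e-16). Both fell in WMW-H against AOM/DSS by limma, Col4a1 (log2 change -0.34 ± 0.03 SE, adjusted p = 1.52e-07) and Col4a2 (log2 change -0.55 ± 0.03 SE, adjusted p = 2.02e-11). The ratio of Col4a1 to Col4a2 was 2.08 ± 0.0513 in WMW-H, 1.79 ± 0.131 in AOM/DSS and 1.61 ± 0.0713 in Control libraries (SD, n = 5 each). All WMW-H libraries had a higher ratio than all other libraries, while the AOM/DSS range of 1.65 to 2.01 overlapped the Control range of 1.54 to 1.72.

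Col18a1 and Col15a1 encode the multiplexins, proteoglycan-like collagens of the basement membrane zone, and the end of the Col18a1 product is the source of endostatin. Col18a1 read 29.6, 29.1, 27.9, 26.8 and 27.6 FPKM in WMW-H, 37, 38.8, 35.7, 39.8 and 37.1 FPKM in AOM/DSS and 12.4, 12, 13, 13.4 and 13.1 FPKM in Control libraries. The AOM/DSS mean was 2.95-fold the Control mean (limma log2 change 1.49 ± 0.04 SE, adjusted p = 1.85e-15), and WMW-H lay below AOM/DSS (limma log2 change -0.41 ± 0.04 SE, adjusted p = 1.15e-07). Col15a1 read 11.6, 10.6, 10.9, 11 and 11.4 FPKM in WMW-H, 13, 14.6, 12.9, 13.3 and 12.1 FPKM in AOM/DSS and 8.76, 8.71, 8.52, 8.98 and 9.07 FPKM in Control libraries. The order was the same with smaller steps, a limma rise in AOM/DSS over Control (log2 change 0.53 ± 0.04 SE, adjusted p = 1.47e-08) and a fall in WMW-H against AOM/DSS (log2 change -0.23 ± 0.04 SE, adjusted p = 0.000279). In both multiplexins no groups overlapped.

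The other tested type IV chains were scarce. Col4a5 and Col4a6, a second head-to-head pair whose products occur in basement membranes around smooth muscle, averaged 2.11 ± 0.287 and 0.835 ± 0.0592 FPKM in WMW-H, 1.92 ± 0.203 and 1.01 ± 0.112 FPKM in AOM/DSS and 1.82 ± 0.0953 and 1.12 ± 0.204 FPKM in Control libraries (SD, n = 5 each). Their groups overlapped in each comparison, and the single call was a lower Col4a6 in WMW-H than in Control (log2 change -0.20 ± 0.07 SE, limma adjusted p = 0.0224). Col4a6 reached 1 FPKM in 0 WMW-H, 2 AOM/DSS and 4 Control libraries, so it met the filter only because of Control, the group where it is high, and that favoured the direction of the call.

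**Figure D4:**
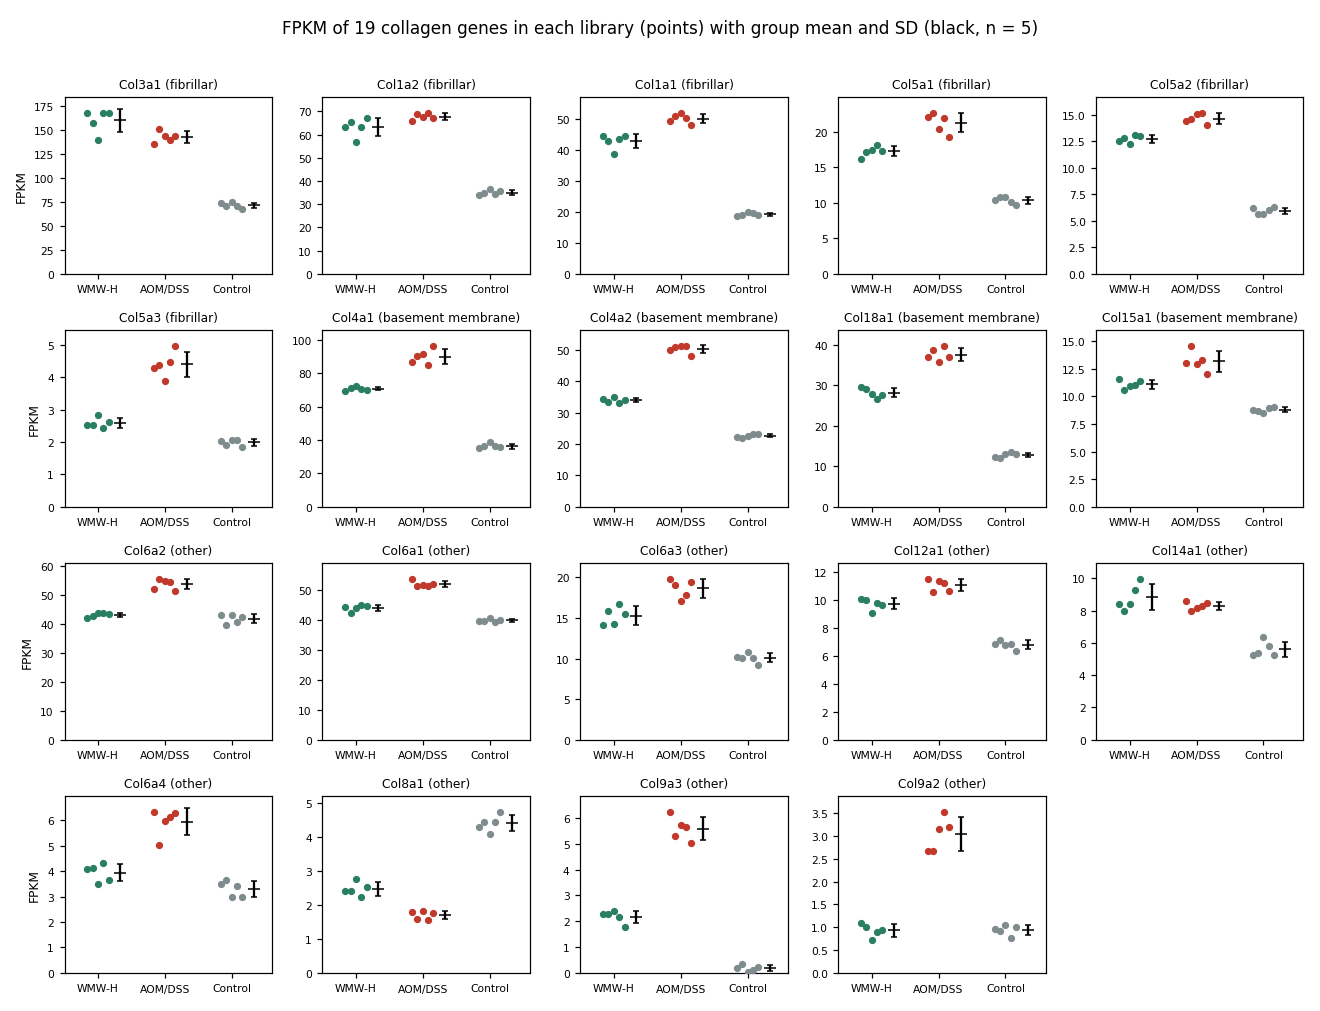
FPKM of 19 collagen genes in each of 15 libraries (points), with the group mean and SD (black, n = 5), in WMW-H, AOM/DSS and Control; each panel has its own axis from 0. Control is lowest in most panels, highest for Col8a1 at 4.10 to 4.75 FPKM, and the WMW-H points of Col9a2, 0.711 to 1.09 FPKM, lie within the Control range or close to it.

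Among the other collagens, type VI chains had the highest levels. Type VI collagen forms beaded filaments that link cells to the matrix around them, and Col6a1 and Col6a2 were among the most abundant collagens of Control colon, at 11.2% and 11.7% of its summed collagen FPKM. Col6a1 stood at 44.3, 42.3, 44, 44.9 and 44.7 FPKM in WMW-H, 53.7, 51.4, 51.6, 51.5 and 52 FPKM in AOM/DSS and 39.7, 39.8, 40.7, 39.4 and 40.2 FPKM in Control libraries. Col6a2 stood at 42, 42.8, 43.6, 43.5 and 43.2 FPKM in WMW-H, 52.1, 55.4, 54.6, 54.4 and 51.3 FPKM in AOM/DSS and 42.8, 39.5, 43, 40.5 and 42.4 FPKM in Control libraries. All AOM/DSS libraries exceeded the rest in both genes, whereas WMW-H and Control libraries overlapped in Col6a2.

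The ratio of AOM/DSS to Control means was 1.3 in Col6a1 (limma log2 change 0.37 ± 0.02 SE, adjusted p = 3.78e-10) and 1.29 in Col6a2 (limma log2 change 0.35 ± 0.03 SE, adjusted p = 1.45e-08). By limma, WMW-H was below AOM/DSS in Col6a1 (log2 change -0.24 ± 0.02 SE, adjusted p = 1.74e-07) and in Col6a2 (log2 change -0.31 ± 0.03 SE, adjusted p = 1.03e-07). Against Control, Col6a1 was slightly higher in WMW-H (log2 change 0.14 ± 0.02 SE, limma adjusted p = 0.000109) and Col6a2 had a log2 change of 0.05 ± 0.03 SE without a call (limma adjusted p = 0.191).

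Col6a3, the longest chain of the type VI monomer, stood at 14.1, 15.9, 14.2, 16.7 and 15.5 FPKM in WMW-H, 19.8, 19.1, 17.1, 17.8 and 19.4 FPKM in AOM/DSS and 10.2, 10.1, 10.8, 10.03 and 9.26 FPKM in Control libraries. No groups overlapped. Its mean rose 1.85-fold in AOM/DSS over Control (limma log2 change 0.83 ± 0.05 SE, adjusted p = 4.65e-10), with a fall in WMW-H against AOM/DSS (limma log2 change -0.27 ± 0.05 SE, adjusted p = 0.000289). The ratio of Col6a3 to Col6a1 was 0.347 ± 0.0269 in WMW-H, 0.358 ± 0.0184 in AOM/DSS and 0.252 ± 0.0129 in Control libraries (SD, n = 5 each), so this chain was relatively more abundant in both groups than in Control. Col6a4, a chain that can take its place, read 4.08, 4.14, 3.51, 4.3 and 3.65 FPKM in WMW-H, 6.33, 5.05, 5.97, 6.12 and 6.3 FPKM in AOM/DSS and 3.52, 3.67, 2.98, 3.42 and 2.97 FPKM in Control libraries. AOM/DSS was above all other libraries, while WMW-H and Control overlapped.

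By limma, Col6a4 rose in AOM/DSS over Control (log2 change 0.69 ± 0.07 SE, adjusted p = 1.52e-07) and fell in WMW-H against AOM/DSS (log2 change -0.49 ± 0.07 SE, adjusted p = 8.84e-06). WMW-H exceeded Control by a log2 change of 0.20 ± 0.07 SE (limma adjusted p = 0.0226), a call lost with size factors (0.0592), with quantile normalization (0.139), and without Control replicate 3 (0.0606), Control replicate 5 (0.0604), WMW-H replicate 2 (0.0506) or WMW-H replicate 4 (0.0594). Col28a1, whose product resembles type VI and occurs near peripheral glia, went the other way: it averaged 1.1 ± 0.191 FPKM in WMW-H, 0.728 ± 0.119 FPKM in AOM/DSS and 1.04 ± 0.155 FPKM in Control libraries (SD, n = 5 each). It fell in AOM/DSS against Control (log2 change -0.24 ± 0.08 SE, adjusted p = 0.0133), and WMW-H was above AOM/DSS (log2 change 0.28 ± 0.08 SE, adjusted p = 0.0044), with overlapping groups in both. It reached 1 FPKM in 3 WMW-H, 0 AOM/DSS and 4 Control libraries, so the filter favoured both directions. Markers of enteric glia and neurons summed to 20.6 FPKM in WMW-H, 19.9 FPKM in AOM/DSS and 31.6 FPKM in Control libraries; their part in the Col28a1 values was not tested.

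The collagens that decorate fibrils, with interrupted helices, included Col12a1 and Col14a1, which encode homotrimers on the surface of type I fibrils. Col12a1 stood at 10.1, 10.02, 9.1, 9.82 and 9.69 FPKM in WMW-H, 11.5, 10.6, 11.4, 11.2 and 10.7 FPKM in AOM/DSS and 6.87, 7.19, 6.83, 6.86 and 6.36 FPKM in Control libraries. No groups overlapped in Col12a1, with AOM/DSS highest. Col14a1 stood at 8.43, 7.97, 8.43, 9.3 and 9.96 FPKM in WMW-H, 8.57, 7.96, 8.14, 8.29 and 8.47 FPKM in AOM/DSS and 5.26, 5.4, 6.34, 5.84 and 5.23 FPKM in Control libraries. Its WMW-H libraries overlapped the AOM/DSS ones, and both groups were above Control.

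By limma, AOM/DSS exceeded Control in Col12a1 (log2 change 0.63 ± 0.04 SE, adjusted p = 7.2e-10) and Col14a1 (log2 change 0.49 ± 0.06 SE, adjusted p = 1.39e-06). Col12a1 fell in WMW-H against AOM/DSS (log2 change -0.17 ± 0.04 SE, adjusted p = 0.00205), a call lost with quantile normalization (limma adjusted p = 0.126). Col14a1 had a log2 change of 0.08 ± 0.06 SE there without a call (limma adjusted p = 0.264), and was called higher with size factors (0.0474) and with quantile normalization (0.0126). Col16a1, another member of this family, averaged 8.43 ± 0.985 FPKM in WMW-H, 9.54 ± 0.34 FPKM in AOM/DSS and 7.71 ± 1.16 FPKM in Control libraries (SD, n = 5 each) and was called higher only in AOM/DSS versus Control (log2 change 0.28 ± 0.08 SE, adjusted p = 0.00631).

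The largest fold change of any tested collagen was in Col9a3, a chain of type IX collagen, which is best known from cartilage. Col9a3 stood at 2.26, 2.26, 2.4, 2.15 and 1.76 FPKM in WMW-H, 6.23, 5.3, 5.71, 5.65 and 5.02 FPKM in AOM/DSS and 0.183, 0.343, 0.02, 0.113 and 0.225 FPKM in Control libraries. Control libraries were near 0, WMW-H libraries near 2 FPKM and AOM/DSS libraries above 5 FPKM, without overlap. The ratio of means was 31.58 for AOM/DSS over Control and 12.25 for WMW-H over Control, with limma log2 changes of 2.49 ± 0.08 SE (adjusted p = 2.58e-14) and 1.43 ± 0.08 SE (adjusted p = 1.27e-10). Because Control lay under the filter of 1 FPKM, this gene passed through the other groups, which partly fixes its direction.

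Col9a2, the partner chain, stood at 1.09, 1.01, 0.711, 0.904 and 0.94 FPKM in WMW-H, 2.66, 2.67, 3.15, 3.52 and 3.19 FPKM in AOM/DSS and 0.955, 0.922, 1.05, 0.767 and 1 FPKM in Control libraries. The AOM/DSS libraries were all above the rest, and WMW-H and Control overlapped. Mean Col9a2 was 3.24-fold higher in AOM/DSS than in Control (limma log2 change 1.06 ± 0.07 SE, adjusted p = 1.47e-09) and lower in WMW-H than in AOM/DSS (limma log2 change -1.06 ± 0.07 SE, adjusted p = 1.91e-09). With 1 FPKM or more in 2 WMW-H, 5 AOM/DSS and 2 Control libraries, Col9a2 met the filter only because of AOM/DSS, the group where it is high, so the filter favoured both directions. In WMW-H against AOM/DSS the log2 changes of Col9a2 and Col9a3 were the most negative of the 26, at -1.06 each. The last chain of the type IX trimer, Col9a1, was not tested and averaged 0.0557 FPKM over the 15 libraries. Col9a3 shares 234 of its exonic bases with Tcfl5 on the other strand in GENCODE M21, and Tcfl5 was at 0 to 0.12 FPKM in all libraries. No source used here says whether fragments were counted by strand.

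Col8a1 was the collagen with the most negative change in AOM/DSS colon. It encodes a chain of type VIII collagen, a short-chain network collagen of vessel walls and other tissues. Col8a1 stood at 2.4, 2.4, 2.78, 2.24 and 2.55 FPKM in WMW-H, 1.8, 1.6, 1.82, 1.55 and 1.77 FPKM in AOM/DSS and 4.3, 4.45, 4.1, 4.45 and 4.75 FPKM in Control libraries. The groups did not overlap, with Control highest and AOM/DSS lowest. The AOM/DSS mean was 0.39 of the Control mean (limma log2 change -1.0 ± 0.06 SE, adjusted p = 7.4e-11), and the WMW-H mean was 1.45-fold the AOM/DSS mean (limma log2 change 0.36 ± 0.06 SE, adjusted p = 3.01e-05). WMW-H stayed below Control (limma log2 change -0.64 ± 0.06 SE, adjusted p = 4.95e-08).

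The 2 tested transmembrane collagens rose in WMW-H against AOM/DSS and were not called in AOM/DSS against Control. Col13a1, known from cell junctions, averaged 1.31 ± 0.156 FPKM in WMW-H, 0.976 ± 0.135 FPKM in AOM/DSS and 1.1 ± 0.119 FPKM in Control libraries (SD, n = 5 each; WMW-H versus AOM/DSS log2 change 0.23 ± 0.07 SE, adjusted p = 0.00776). Col23a1, another transmembrane chain, averaged 4.19 ± 0.204 FPKM in WMW-H, 3.52 ± 0.369 FPKM in AOM/DSS and 3.15 ± 0.216 FPKM in Control libraries (SD, n = 5 each; WMW-H versus AOM/DSS log2 change 0.20 ± 0.06 SE, adjusted p = 0.00787). In both genes the WMW-H and AOM/DSS libraries overlapped. Col13a1 reached 1 FPKM in 5 WMW-H, 2 AOM/DSS and 5 Control libraries, so the filter favoured its direction in WMW-H against AOM/DSS.

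The 18 untested collagens did not exceed 0.968 FPKM in any library, and 6 of them were at 0 in at least 1 library. They were Col2a1, Col11a1, Col11a2 and Col24a1 of the fibrillar class, Col4a3 and Col4a4 of the basement membrane class, and Col6a5, Col6a6, Col7a1, Col8a2, Col9a1, Col10a1, Col17a1, Col19a1, Col20a1, Col22a1, Col25a1 and Col26a1. When limma was run with no filter, 4 of the 18 were called higher and 2 lower in AOM/DSS than in Control, 0 higher and 2 lower in WMW-H than in AOM/DSS, and 0 higher and 2 lower in WMW-H than in Control. In that fit, of 18399 genes, 34.4% were higher and 16.7% lower in AOM/DSS than in Control, 19.1% higher and 30.1% lower in WMW-H than in AOM/DSS, and 25.9% higher and 18.0% lower in WMW-H than in Control.

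The clearest of these, singled out after its values were seen, was Col17a1, which encodes a transmembrane collagen of hemidesmosomes, the rivets that fasten basal epithelial cells to laminin. It stood at 0.073, 0.107, 0.089, 0.054 and 0.056 FPKM in WMW-H, 0.429, 0.339, 0.442, 0.602 and 0.332 FPKM in AOM/DSS and 0.025, 0, 0.051, 0.048 and 0.029 FPKM in Control libraries. Every AOM/DSS library was above every other one. In the fit with no filter its log2 changes were 0.47 in AOM/DSS versus Control (limma adjusted p = 1.12e-07) and -0.41 in WMW-H versus AOM/DSS (limma adjusted p = 6.5e-07). These levels rest on few reads, a median of 8.11 fragments per library on the longest transcript.

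Most laminins and other partners of collagen in the basement membrane rose in AOM/DSS colon and fell in WMW-H colon against it. Of 14 such genes tested, 13 rose and 0 fell in AOM/DSS against Control, where 45.5% of all genes tested rose and 20.6% fell, with a median log2 change of 0.62 against 0.12 over all genes. In WMW-H against AOM/DSS 11 fell and 1 rose, where 40.9% of all genes fell and 25.9% rose, with a median of -0.42 against -0.07 over all genes. Lama3 and Lamb3 encode laminin chains of the epithelial basement membrane. Lama3 averaged 14.1 ± 0.534 FPKM in WMW-H, 23.1 ± 0.857 FPKM in AOM/DSS and 4.47 ± 0.362 FPKM in Control libraries (SD, n = 5 each), with limma log2 changes of 2.14 in AOM/DSS versus Control (adjusted p = 1.33e-16) and -0.68 in WMW-H versus AOM/DSS (adjusted p = 1.5e-09). Lamb3 averaged 45.2 ± 1.65 FPKM in WMW-H, 69.8 ± 0.987 FPKM in AOM/DSS and 42 ± 0.626 FPKM in Control libraries, with limma log2 changes of 0.72 in AOM/DSS versus Control (adjusted p = 1.6e-13) and -0.61 in WMW-H versus AOM/DSS (adjusted p = 3.32e-12). Lama5, a chain of the main epithelial basement membrane laminins, averaged 4.56 ± 0.252 FPKM in WMW-H, 9.83 ± 0.434 FPKM in AOM/DSS and 2.49 ± 0.168 FPKM in Control libraries and had the most negative change of the list in WMW-H versus AOM/DSS (log2 change -0.96, limma adjusted p = 4.78e-11). Lama2, a laminin chain of muscle basement membranes, went against the rest, higher in WMW-H than in AOM/DSS (log2 change 0.16, limma adjusted p = 0.027).

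Enzymes that modify collagen chains in the endoplasmic reticulum mostly rose in AOM/DSS over Control colon, 11 of 13 with 0 lower, against 45.5% higher and 20.6% lower of all genes, and a median log2 change of 0.36 against 0.12 over all genes. Against AOM/DSS, 9 of the 13 were lower and 1 higher in WMW-H, where 40.9% of all genes were lower and 25.9% higher. Plod1 and Plod3, which hydroxylate lysines, and Colgalt1, which adds galactose to them, changed with the smallest p. Colgalt1 averaged 29.7 ± 0.746 FPKM in WMW-H, 45.1 ± 1.33 FPKM in AOM/DSS and 30.5 ± 1.57 FPKM in Control libraries (SD, n = 5 each), and against Control its WMW-H libraries had a log2 change of -0.03 (limma adjusted p = 0.404). The one that rose in WMW-H against AOM/DSS was Plod2, which hydroxylates the telopeptide lysines used in stable cross-links, at 2.48 ± 0.376 FPKM in WMW-H, 1.88 ± 0.372 FPKM in AOM/DSS and 1.62 ± 0.204 FPKM in Control libraries (log2 change 0.28 ± 0.09 SE, limma adjusted p = 0.0158).

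Of 13 folding and export genes, 4 were higher and 6 lower in AOM/DSS than in Control, beside 45.5% higher and 20.6% lower of all genes. In WMW-H 6 of them were above AOM/DSS and 5 below, beside 25.9% and 40.9% of all genes. Serpinh1, whose product HSP47 is the chaperone specific to collagen, averaged 59 ± 1.13 FPKM in WMW-H, 64.4 ± 2.28 FPKM in AOM/DSS and 28.8 ± 0.501 FPKM in Control libraries (SD, n = 5 each). Its limma log2 changes were 1.13 in AOM/DSS versus Control (adjusted p = 4.16e-16), -0.12 in WMW-H versus AOM/DSS (adjusted p = 0.000721) and 1.01 in WMW-H versus Control (adjusted p = 5.93e-15). Fkbp10, Pdia4 and Klhl12, a chaperone, a disulfide isomerase and a ubiquitin ligase adaptor for large transport vesicles, also rose in AOM/DSS over Control, by log2 changes of 0.41, 0.40 and 0.23. Creb3l1, a transcription factor of secretory cells, fell in AOM/DSS against Control (log2 change -0.50, limma adjusted p = 3.7e-09) and further in WMW-H (-0.14, limma adjusted p = 0.00327). Hspa5, a general chaperone, and Sec23a, a vesicle coat subunit, rose in WMW-H against AOM/DSS by 0.27 and 0.32, while Sec31a, another coat subunit, fell by 0.26.

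Of 6 tested genes for propeptide removal and processing, 4 rose and 2 fell in AOM/DSS against Control, beside 45.5% and 20.6% of all genes. In WMW-H 2 were above AOM/DSS and 3 below, shares near the 25.9% and 40.9% of all genes. Bmp1, the protease that trims the ends of fibrillar procollagens, averaged 6.68 ± 0.42 FPKM in WMW-H, 10.5 ± 0.377 FPKM in AOM/DSS and 4.58 ± 0.476 FPKM in Control libraries (SD, n = 5 each), with limma log2 changes of 1.04 in AOM/DSS versus Control (adjusted p = 4.88e-11) and -0.58 in WMW-H versus AOM/DSS (adjusted p = 1.38e-07). Sparc, a collagen-binding matricellular protein, averaged 147 ± 4.28 FPKM in WMW-H, 156 ± 4.23 FPKM in AOM/DSS and 80.6 ± 3.89 FPKM in Control libraries. The 2 that fell in AOM/DSS were the meprins Mep1a and Mep1b, proteases best known from the epithelial brush border, with log2 changes of -0.47 and -0.50, and in WMW-H against AOM/DSS both rose, by 0.57 and 0.45.

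All 5 tested cross-linking genes rose in AOM/DSS over Control, as did 45.5% of all genes, with a median log2 change of 0.86. In WMW-H 4 of them fell against AOM/DSS and 1 rose, beside 40.9% and 25.9% of all genes. Loxl1 and Loxl2, lysyl oxidases that start covalent cross-links, rose by log2 changes of 1.08 each in AOM/DSS and fell by 0.34 each in WMW-H against AOM/DSS, and Tgm2, a transglutaminase, rose by 0.71 and fell by 0.29. Lox itself was the exception and rose in both, at 3.64 ± 0.402 FPKM in WMW-H, 2.67 ± 0.251 FPKM in AOM/DSS and 1.03 ± 0.135 FPKM in Control libraries (SD, n = 5 each). Its limma log2 changes were 0.86 in AOM/DSS versus Control (adjusted p = 1.79e-08) and 0.34 in WMW-H versus AOM/DSS (adjusted p = 0.000673).

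Of 8 collagen receptors, 3 rose and 2 fell in AOM/DSS against Control, near the 45.5% and 20.6% of all genes. In WMW-H 3 were above AOM/DSS and 1 below, beside 25.9% and 40.9% of all genes, so these counts do not set the receptors apart. Ddr1, a collagen-activated receptor kinase of epithelial cells, averaged 43.7 ± 2.24 FPKM in WMW-H, 74.3 ± 1.89 FPKM in AOM/DSS and 46 ± 1.19 FPKM in Control libraries (SD, n = 5 each), a rise in AOM/DSS over Control (log2 change 0.68, limma adjusted p = 8.81e-12) and a fall in WMW-H against AOM/DSS (-0.75, limma adjusted p = 4.55e-12). Mrc2, an endocytic receptor that takes up collagen fragments, rose by 0.63 in AOM/DSS over Control. Itgb1 and Itga2, whose products pair as a collagen-binding integrin, fell in AOM/DSS by 0.07 and 0.22 and rose in WMW-H against AOM/DSS by 0.52 and 0.38.

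**Figure D5:**
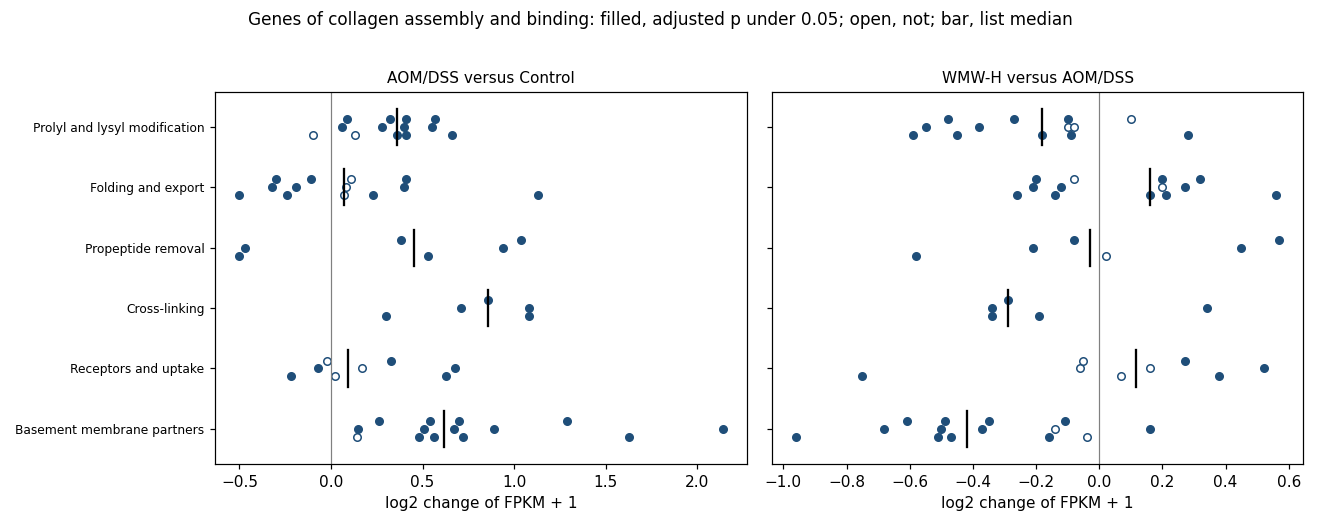
Log2 change of FPKM + 1 for each tested gene of 6 lists of collagen-handling genes in AOM/DSS versus Control (left) and WMW-H versus AOM/DSS (right); filled points have an adjusted p under 0.05 by limma, open points do not, and bars mark list medians. The median of the basement membrane partners is 0.62 on the left and -0.42 on the right, and that of folding and export genes is 0.07 and 0.16.

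Markers of the cell types that could supply this RNA also differed. The 8 fibroblast markers other than collagens summed to 263 to 272 FPKM in WMW-H, 185 to 196 FPKM in AOM/DSS and 162 to 167 FPKM in Control libraries. Of these, 6 rose and 2 fell in AOM/DSS against Control, beside 45.5% and 20.6% of all genes tested. In WMW-H 4 were above AOM/DSS and 2 below, beside 25.9% and 40.9% of all genes. Dcn, a small proteoglycan that binds type I fibrils, had the highest level of the list and averaged 114 ± 3.14 FPKM in WMW-H, 59.3 ± 2.32 FPKM in AOM/DSS and 63.4 ± 2.09 FPKM in Control libraries (SD, n = 5 each), so it weighs most in these sums.

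The 8 markers did not change alike. In AOM/DSS against Control, Dcn and Lum, a related proteoglycan, were the 2 that fell, by limma log2 changes of -0.10 and -0.38. Those that rose were Pdgfra (0.54), Pdgfrb (0.70), Dpt (0.17), Mfap5 (0.57), Fbln1 (0.45) and Pi16 (1.43). In WMW-H against AOM/DSS, Dcn (0.93), Lum (0.92), Dpt (0.56) and Pdgfra (0.17) were higher. Pdgfrb (-0.29) and Fbln1 (-0.15) were lower there, and Mfap5 and Pi16 were not called.

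The 6 endothelial markers summed to 95.0 to 102 FPKM in WMW-H, 105 to 111 FPKM in AOM/DSS and 82.9 to 90.3 FPKM in Control libraries. Of them 5 rose and 0 fell in AOM/DSS against Control, beside 45.5% and 20.6% of all genes tested. Adipocyte markers summed to 87.6 to 107 FPKM in WMW-H, 157 to 162 FPKM in AOM/DSS and 233 to 255 FPKM in Control libraries, and leukocyte markers to 310.0 to 332 FPKM in WMW-H, 403 to 413 FPKM in AOM/DSS and 171 to 189 FPKM in Control libraries. Most of the leukocyte sum was Lyz2, a lysozyme of myeloid cells, at 270.0 ± 8.62 FPKM in WMW-H, 347 ± 6.92 FPKM in AOM/DSS and 127 ± 5.1 FPKM in Control libraries (SD, n = 5 each). Of the 5 leukocyte markers, Lyz2 and Csf1r rose in AOM/DSS against Control, while Ptprc, Cd3e and Cd79a fell, by limma log2 changes of -0.55, -0.65 and -0.17. In that comparison 45.5% of all genes tested rose and 20.6% fell. The 4 mesothelial markers summed to at most 1.86 FPKM in any library. The part of these cell types, and of the source of the pancreatic and accessory gland transcripts named at the outset, in the collagen values was not tested.

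Scaling affected the levels of all genes. With median-of-ratios size factors, the median log2 change of all genes in AOM/DSS versus Control was 0.01 in place of 0.12, a shift of 0.11, and higher calls made up 51.3% of calls in place of 68.9%. Relative to the median of all genes, the median log2 change of the tested collagens was 0.54 higher in AOM/DSS versus Control, -0.13 in WMW-H versus AOM/DSS and 0.26 in WMW-H versus Control. Under size factors 18 collagens were higher and 2 lower in AOM/DSS versus Control, 6 higher and 15 lower in WMW-H versus AOM/DSS and 16 higher and 2 lower in WMW-H versus Control. Of the calls over all genes in that setting, 51.3%, 47.5% and 50.6% were higher in these comparisons. The median log2 changes there were 0.55, -0.14 and 0.27 in collagens, against 0.01, -0.02 and 0.01 over all genes.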

How the data were processed

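RNA selected with oligo(dT) beads went through the NEBNext Ultra workflow and Illumina sequencing on a Novaseq6000, per the labels' protocols. Tools named in the submitters' processing notes are RSEM, HISAT2, fastp 0.18.0, StringTie 1.3.1 and Bowtie2 2.2.8, with no order or settings. No genome build or annotation is given in the sources used here. The authors deposited 1 table of FPKM values for 22063 genes, and its values are not counts, so no count model was used. Depth was recovered from steps between low values: over 3328 genes with 1 annotated transcript, 88.2 to 94.1% of low values per library came within 0.1 of a whole fragment.

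The filter asked for 1 FPKM or more in 5 or more libraries, which 12917 genes met. Under R 4.3.3, limma 3.58.1 fitted log2(FPKM + 1) in all 15 libraries with 3 group means and a variance trend. The two-sided p-values were adjusted by Benjamini and Hochberg over all genes tested. On simulated data, 100 of 100 genes changed 2-fold were recovered in each comparison, and of those changed 1.25-fold 82 of 100 in AOM/DSS versus Control, 64 of 100 in WMW-H versus AOM/DSS and 80 of 100 in WMW-H versus Control. False calls were 12 of 194, 10 of 174 and 10 of 190 calls. The simulation changed few genes, used a fixed spread for all genes and held no outlying library, unlike these data, so recovery here can differ.

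The members and the lists of handling genes and markers were chosen with earlier results of these data known. Values by library are given for the 4 tested members of each class with the highest mean and for every tested member called with an absolute log2 change of at least 0.5, 19 in all. From each list, up to 3 called genes with the smallest p and those going against the majority are named. One gene that this rule names is not reported here. Promoter windows came from RefSeq on GRCm38.p6, and exon overlaps from GENCODE M21. Pairs of libraries of a group differed by more than counting noise, and all 15 libraries were used. Chi-square per degree of freedom was 20.79 to 26.27 for pairs with WMW-H replicate 3 and 2.4 to 3.97 for all other pairs. Such an excess cannot show that the libraries of a group came from separate animals. Alternatives covered scaling, pseudocount, filter, variance trend, groups in the fit, a replicate block and leaving out each library.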

Additional observations from a re-analysis of the deposited data

Results flagged for a closer look

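In the 57 sets of 5 libraries formed by the 19 named collagens and 3 groups, 3 had a library whose gap to its nearest neighbour exceeded 0.71 of the set's range, and chance gives about 1 in 20 such sets. Col1a1 was at 38.768 FPKM in WMW-H replicate 3, with a gap of 0.738 of the range, below the other 4 WMW-H libraries. Col6a1 was at 53.722 FPKM in AOM/DSS replicate 1, with a gap of 0.758 of the range, above the rest of its group. Col6a4 was at 5.046 FPKM in AOM/DSS replicate 2, with a gap of 0.723 of the range, below the rest of its group. Each of these libraries stayed on the same side of every Control library as the rest of its group.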

How the results depend on the processing

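Over 25 other settings, 50 of the 57 log2 changes of the named collagens kept their direction and their side of the threshold. The 2 collagens lower in AOM/DSS than in Control became 4 with quantile normalization, 4 with no filter and 1 with a filter on the mean. The 2 lower in WMW-H than in Control became 4 with no filter and 1 with a filter on the mean, and ranged from 1 to 2 when single libraries were left out, with 1 without Control replicate 3 and 1 without Control replicate 4, since Col4a6 lost its call. The filter on the mean left Col4a6, Col27a1 and Col28a1 untested, and with no filter genes under 1 FPKM were tested. An uncalled change turned sign in Col6a2, WMW-H versus Control, at -0.0044 with size factors, and in Col9a2, WMW-H versus Control, which ranged from -0.0406 to 0.0353 when single libraries were left out. Calls lost in Col1a2, Col3a1, Col6a4 and Col12a1 or gained in Col14a1 are given beside their values; the cause was not tested.

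Size factors and quantile normalization moved the share of calls that were higher to 51.3% and 48.0% in AOM/DSS versus Control (68.9% as reported), 47.5% and 49.4% in WMW-H versus AOM/DSS (38.8%) and 50.6% and 48.6% in WMW-H versus Control (59.5%). A replicate block left the collagen counts at 19 higher and 2 lower, 5 and 16, and 18 and 2 in the 3 comparisons, and libraries with the same number did not deviate together, with correlations of -0.047 to 0.03. FPKM steps of genes with several transcripts gave no whole fragments, so counting error per gene was not modelled, and untested members rest on few fragments.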

Other observations

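Neighbouring collagen genes on the same chromosome did not always have like changes, given here as values. Col3a1 and Col5a2 lie next to each other, and in WMW-H versus AOM/DSS the log2 change was 0.16 in Col3a1 and -0.19 in Col5a2, both called by limma. Col6a1 and Col6a2 are also neighbours, with -0.24 and -0.31. In the pair Col4a5 and Col4a6 neither gene was called in that comparison. Col6a4 lies beside Col6a5, and Col6a5, an alternative type VI chain, averaged 0.789 FPKM over the 15 libraries and was not called in any comparison in the fit with no filter.

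Among untested members, Col25a1, a transmembrane collagen of neurons and muscle, averaged 0.213 ± 0.0784 FPKM in WMW-H, 0.179 ± 0.0784 FPKM in AOM/DSS and 0.358 ± 0.11 FPKM in Control libraries (SD, n = 5 each). In the fit with no filter it was lower in AOM/DSS than in Control (log2 change -0.20, limma adjusted p = 0.0106). Col7a1, the anchoring fibril chain that ties epithelial basement membrane to the matrix below, averaged 0.194 ± 0.034 FPKM in WMW-H, 0.271 ± 0.0653 FPKM in AOM/DSS and 0.127 ± 0.0478 FPKM in Control libraries, and was higher in AOM/DSS than in Control (log2 change 0.17, limma adjusted p = 0.00109). In both genes the AOM/DSS and Control libraries overlapped. Their levels rest on few reads, a median of 30.3 fragments per library in Col25a1 and 33.2 in Col7a1 on the longest transcript. Both were chosen after their values were seen.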
